A study of Mus musculus with 3 samples.

Results

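Ribosomal protein genes encode the protein parts of the cytosolic ribosome. They were followed here in RNA bound to chromatin. Members were the genes with a protein-coding transcript whose symbol begins with Rpl, Rps or Rplp followed by a number, plus Rpsa. Kinases of the Rps6k family and pseudogenes were left out. This rule took 86 of 21901 genes with a protein-coding transcript. They comprised 46 proteins of the large subunit, 31 of the small subunit, 8 paralogs of such proteins and Rps19bp1, a binding partner of a ribosomal protein that shares the name but is no part of the ribosome. The 77 genes of the first 2 groups are called core members below. The 3 libraries came from macrophages grown out of C57BL/6J bone marrow and given lipid A, the TLR4-binding part of lipopolysaccharide, at 100 ng/ml for 15 min. They are biological replicates of 1 group that share a donor label, with RNA of the chromatin fraction depleted of ribosomal RNA, and no unstimulated library was analysed here, so levels and not responses can be described. Input was 1 µg (replicate 1), 250 ng (replicate 2) or 500 ng (replicate 3) of RNA. Expected counts per library were 10974934, 21376404 and 14376665. The 10 macrophage markers were all at 1 TPM (transcripts per 1000000, a level corrected for length) or more in each library, and their summed level was 1471, 953 and 1394 TPM. Of the markers for neutrophils, T and B cells and stromal cells none reached 1 TPM in all 3 libraries, and their summed levels lay between 0.09 and 1.34 TPM. Of the 4 erythroid markers 1, Alas2, did, and their sum lay between 5.19 and 9.56 TPM.

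A ribosome needs its proteins in equal numbers, and their mRNAs are among the most abundant and stable of the cytoplasm. Their transcripts typically start with a cytosine followed by a run of pyrimidines, the 5′ terminal oligopyrimidine (TOP) motif, through which translation is controlled by growth signals. Several of these genes carry small nucleolar RNAs (snoRNAs) in their introns, which are released after splicing and guide chemical modification of ribosomal RNA. In chromatin RNA, nascent and incompletely spliced transcripts are kept while most cytoplasmic mRNA is removed.

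The sequences that separate the forms of these transcripts are shown first, because most of the signal of Rpl10, Rpl3 and Rpl10a lay in isoforms that hold a whole intron. For each gene, the annotated isoform with the spliced junction is followed by both ends of the intron in the isoform that holds it, with intron bases in capitals and 20 exon bases in lower case. The sequences are those of GENCODE M21 transcripts, 5′ to 3′, and all the introns begin with GT and end with AG. The introns lie within coding sequence, at chrX:74271719-74271799 on the plus strand for Rpl10 (81 bases), at chr15:80081032-80081614 on the minus strand for Rpl3 (583 bases) and at chr17:28329048-28329373 on the plus strand for Rpl10a (326 bases), in mm10.
Rpl10-201, spliced: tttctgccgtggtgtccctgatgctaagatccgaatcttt
Rpl10-208, start of the intron: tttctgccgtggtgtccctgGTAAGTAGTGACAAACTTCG
Rpl10-208, end of the intron: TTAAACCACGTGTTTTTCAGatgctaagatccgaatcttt
Rpl3-201, spliced: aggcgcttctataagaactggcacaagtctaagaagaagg
Rpl3-204, start of the intron: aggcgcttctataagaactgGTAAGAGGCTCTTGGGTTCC
Rpl3-204, end of the intron: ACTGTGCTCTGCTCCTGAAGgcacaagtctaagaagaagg
Rpl10a-201, spliced: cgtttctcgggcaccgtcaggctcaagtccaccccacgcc
Rpl10a-206, start of the intron: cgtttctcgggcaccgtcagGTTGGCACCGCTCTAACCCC
Rpl10a-206, end of the intron: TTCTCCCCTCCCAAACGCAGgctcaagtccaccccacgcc

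Nearly all ribosomal protein genes were detected on chromatin, at levels spread over a wide range. Of the 86 members, 80 were at 1 TPM or more in all 3 libraries, among them all 77 core members, and 42.6% of all genes with a protein-coding transcript (9334 of 21901) were. The median member stood at 10.04, 9.94 and 14.0 TPM in replicates 1, 2 and 3, or 11.3 ± 2.33 TPM (SD, n = 3). Over the 10235 protein-coding genes with a mean of 1 TPM or more the median was 8.74 ± 2.2 TPM (SD, n = 3). Together the members held 0.112%, 0.128% and 0.131% of the expected counts, which is 0.124 ± 0.0103% (SD, n = 3). A mean of at least 5 TPM was reached by 69 of the 86 members and by 6874 of the 21901 genes with a protein-coding transcript. At least 10 TPM was reached by 48 members, at least 20 TPM by 23, and 76 had 10 or more counts in every library. These last 3 cuts were not counted over all genes, so they do not set the members apart. For members at a mean of 1 TPM or more, the upper bound of the authors' deposited interval was a median of 1.69, 1.44 and 1.52 times the lower bound in replicates 1, 2 and 3. Across the 83 members with any count, TPM in pairs of libraries had Spearman correlations of 0.884, 0.926 and 0.947; these are across genes and rest on 1 library each.

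**Figure D1:**
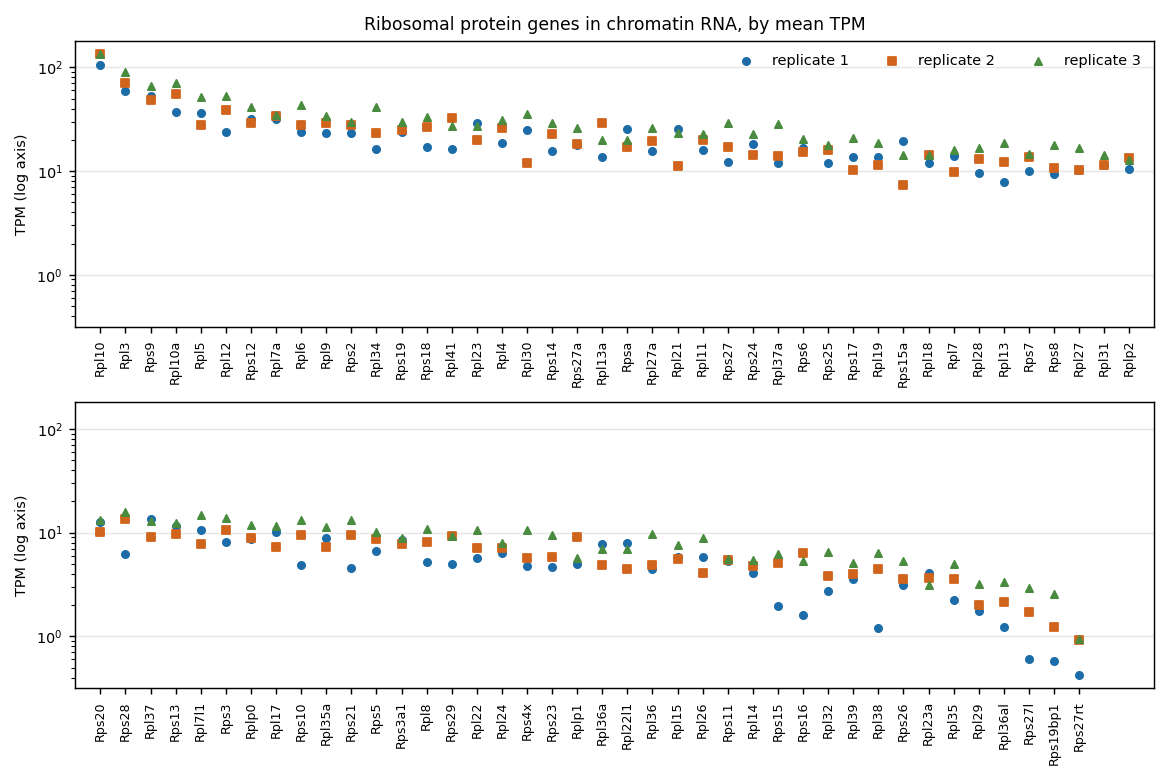
TPM (log axis) of 82 of the 83 ribosomal protein genes with any count, ordered by mean and split over 2 rows; each symbol is 1 library. Rpl10 leads at 105 to 135 TPM, most core members lie between 5 and 60 TPM, and Rps27rt is lowest at 0.42 to 0.94 TPM.

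Rpl10 and Rpl3 stood above the others. Rpl10, a large subunit protein that joins late in assembly near the catalytic centre, was at 105 TPM in replicate 1 and 135 TPM in replicates 2 and 3, and ranked 228th among all protein-coding genes. Rpl3, another protein close to the catalytic centre, was at 59.5, 69.9 and 90.9 TPM, below Rpl10 in every library and without overlap. Rps9, an early-binding protein of the small subunit, followed at 53.3, 48.5 and 66.5 TPM, a range that overlaps that of Rpl3. Rpl10a, which forms the mobile stalk at which tRNA leaves, was at 37.0, 55.4 and 70.9 TPM, and its range overlaps those of Rps9 and Rpl3. Within each library Rpl3 was above both Rps9 and Rpl10a, while the order of Rps9 and Rpl10a differed between libraries.

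The next 8 by mean level were 6 proteins of the large subunit and 2 of the small one. Rpl5, which carries 5S ribosomal RNA and can bind Mdm2, was at 36.4, 28.0 and 51.5 TPM. Rpl12, at the base of the stalk that recruits translation factors, was at 24.0, 38.7 and 53.2 TPM. Rps12 was at 31.5, 28.8 and 41.6 TPM, and Rpl7a at 32.1, 34.2 and 34.4 TPM, the narrowest range of the 12. This does not hold for TPM rescaled to protein-coding genes, described below. There Rpl7a was at 134, 206 and 136, a wider range than that of Rps12, at 131.8, 173.2 and 164.5. Rpl6 averaged 31.6 ± 10.5 TPM, Rpl9 28.6 ± 5.27 TPM, Rps2, which lines the mRNA entry channel, 26.9 ± 3.49 TPM, and Rpl34 26.9 ± 12.8 TPM (SD, n = 3 each). The ranges of these 8 overlap in part, and the lowest core member, Rpl29, stood at 1.75, 2.01 and 3.20 TPM.

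The levels of the subunits overlapped. The median was 12.4 ± 2.35 TPM over the 46 core genes of the large subunit and 12.2 ± 2.11 TPM over the 31 of the small subunit (SD, n = 3 each). Their difference on the log2(TPM + 1) scale was 0.02 ± 0.10 (SD, n = 3), smaller than its own spread. It was 0.13 ± 0.06 in the second quantification (SD, n = 3), an independent assignment of the reads deposited with the tables, and positive in each library there. It was -0.02 without replicate 2, and -0.03 in TMM-scaled CPM (counts per 1000000), which are not divided by length.

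Core proteins and most paralogs were far apart. Rpl3l, known from striated muscle, and Rpl10l and Rpl39l, known from testis, had 0 expected counts in each library. A count of 3 would have been worth 0.276, 0.124 and 0.253 TPM for Rpl3l in replicates 1, 2 and 3, so lower levels cannot be seen at this depth, and these limits cover counting error only. Their parent genes were the highest members Rpl10 and Rpl3, and Rpl39 at 3.60, 3.99 and 5.14 TPM. Rps27rt was at 0.42, 0.93 and 0.94 TPM and Rps27l at 0.61, 1.70 and 2.90 TPM, below the parent Rps27, at 12.2, 17.1 and 28.8 TPM, in every library. Rps27rt rests on 1, 4.17 and 2.04 counts and was at 0 TPM in the second quantification. Rps27l rests on 3 counts in replicate 1, where its TPM lay below its deposited interval of 0.889 to 4.96 TPM. In the second quantification Rps27l was at 15.8, 6.19 and 18.5 TPM, also below Rps27, at 46.9, 27.3 and 42.55 TPM. Rpl36al was at 1.22, 2.12 and 3.31 TPM, also below its parent Rpl36a, at 7.69, 4.85 and 6.95 TPM. The other pairs lay closer. Rpl7l1 was at 10.6, 7.73 and 14.8 TPM and its parent Rpl7 at 14.0, 9.83 and 16.1 TPM, and Rpl22l1 at 7.88, 4.50 and 6.91 TPM with its parent Rpl22 at 5.63, 7.08 and 10.5 TPM, so that the ranges in both pairs overlap. The level of Rpl22l1 is loose: its deposited interval ran from 7.19 to 65.8, 4.08 to 36.6 and 6.30 to 80.2 TPM in replicates 1, 2 and 3, while that of Rpl22 ran from 4.19 to 9.13, 5.74 to 9.39 and 8.30 to 14.8 TPM. Rps19bp1 was at 0.58, 1.22 and 2.55 TPM. Near-identical copies make single values uncertain: 300 annotated pseudogenes carry names of these genes, and counts assigned to them equalled 6.40%, 4.08% and 4.75% of the members' counts. Rps2-ps9 held the most, at 89.0, 127 and 110 counts.

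Set against related lists, cytosolic ribosomal protein genes stood above those of the mitochondrial ribosome and below the translation genes. The 78 mitochondrial ribosomal protein genes stood at a median of 3.14 ± 0.896 TPM (SD, n = 3). Their highest were Mrpl24 at 33.2 ± 9.997 TPM, Mrps9 at 24.4 ± 7.80 TPM, Mrpl3 at 16.2 ± 4.87 TPM and Mrps15 at 14.2 ± 3.53 TPM (SD, n = 3 each). Of the 78, 61 were at 1 TPM or more in all libraries. The cytosolic minus mitochondrial difference of medians was 1.58 ± 0.14 on the log2(TPM + 1) scale (SD, n = 3), larger than its spread; in TMM-scaled CPM it was 0.83. An exact two-sided sign-flip test of 3 libraries can give no p below 0.25, so none was made. The 28 genes of translation factors and other TOP mRNAs had a median of 19.1 ± 2.76 TPM (SD, n = 3), with all 28 at 1 TPM or more in each library. Their highest were Eif4a2 at 339 ± 69.7 TPM and Eif4a1 at 227 ± 8.64 TPM, both RNA helicases of translation initiation, the elongation factor Eef1a1 at 255 ± 71.3 TPM, and Vim, which encodes the filament protein vimentin, at 117 ± 13.8 TPM (SD, n = 3 each). Among the 26 genes listed as ribosome assembly factors 24 passed 1 TPM in all libraries and the median was 6.42 ± 1.20 TPM (SD, n = 3). The highest in this list was Mdm2 at 111 ± 23.1 TPM (SD, n = 3). It encodes the p53 ligase that free ribosomal proteins bind and is no assembly factor itself. Gnl3 followed at 39.4 ± 12.6 TPM, the nucleolar protein Ncl at 35.4 ± 8.60 TPM and the snoRNP protein Nop56 at 28.8 ± 4.65 TPM (SD, n = 3 each). Rack1 at 31.5 ± 6.69 TPM and Fau at 13.9 ± 4.59 TPM (SD, n = 3 each), which encode ribosomal proteins under other symbols, lay within the range of the core members and are counted in the TOP list.

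Most of the signal of these genes was assigned to isoforms of the annotated class retained intron, of which only some hold a complete intron. Over all members together, retained-intron isoforms took 58.0%, 59.1% and 59.2% of the TPM, against 29.2%, 29.2% and 30.0% for protein-coding isoforms, in replicates 1, 2 and 3. Processed transcripts, which have no open reading frame annotated, took 10.4 ± 1.08%, and isoforms subject to nonsense-mediated decay 1.38 ± 0.32% (SD, n = 3 each). The annotation decides what can be seen: of the 505 isoforms of the members 177 are classed as retained intron, in 65 members, and 21 members have none. Of the 177, 89 hold at least 1 whole intron of a coding isoform. Isoforms of any class that hold a whole intron took 44.1%, 47.3% and 43.8% of the members' TPM, which is less than the class took. The measures parted most in single genes: Rpl5 had 9.11 ± 2.20% in isoforms with a whole intron and Rpsa none, while Rpl31 had 57.4 ± 13.2% and Rps9 38.5 ± 2.40% (SD, n = 3 each). Rpl10 had 93.0 ± 0.412%, Rpl10a 93.2 ± 1.46% and Rpl3 69.7 ± 4.73% (SD, n = 3 each). Retained-intron isoforms were the leading class in 49 of the 83 members with any TPM, protein-coding isoforms in 26 and processed transcripts in 8. Leading classes were not counted over all protein-coding genes, so these counts do not set the members apart.

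Among genes with such an isoform and a mean of 5 TPM or more, retained-intron isoforms held over 50% of the TPM in 43 of 58 ribosomal protein genes (74.1%); of all 4956 such protein-coding genes, 47.5% did. The median share was 67.3%, 62.5% and 63.3% in the ribosomal protein genes and 52.0%, 45.2% and 48.7% in all protein-coding genes, so the ribosomal protein genes stood higher in each library. By expected counts the median shares were 62.3 ± 4.59% in ribosomal protein genes and 31.0 ± 3.39% in all protein-coding genes, and in the second quantification 53.8 ± 0.521% and 46.2 ± 1.83% (SD, n = 3 each). The ribosomal protein genes were higher by each measure, and the gap was smallest in the second quantification. The share was 64.8 ± 3.20% over 31 core genes of the large subunit and 63.3 ± 4.81% over 25 of the small subunit, 54.3 ± 4.06% over 21 mitochondrial ribosomal protein genes and 53.9 ± 4.68% over 21 translation and other TOP genes (SD, n = 3 each). By expected counts these lists were closer to the 62.3% of the ribosomal protein genes, at 58.0 ± 3.17% for the mitochondrial and 56.8 ± 10.7% for the TOP genes, and in the second quantification the mitochondrial genes, at 53.3 ± 5.54%, and the TOP genes, at 50.9 ± 1.502%, lay near the 53.8% of the ribosomal protein genes (SD, n = 3 each).

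**Figure D2:**
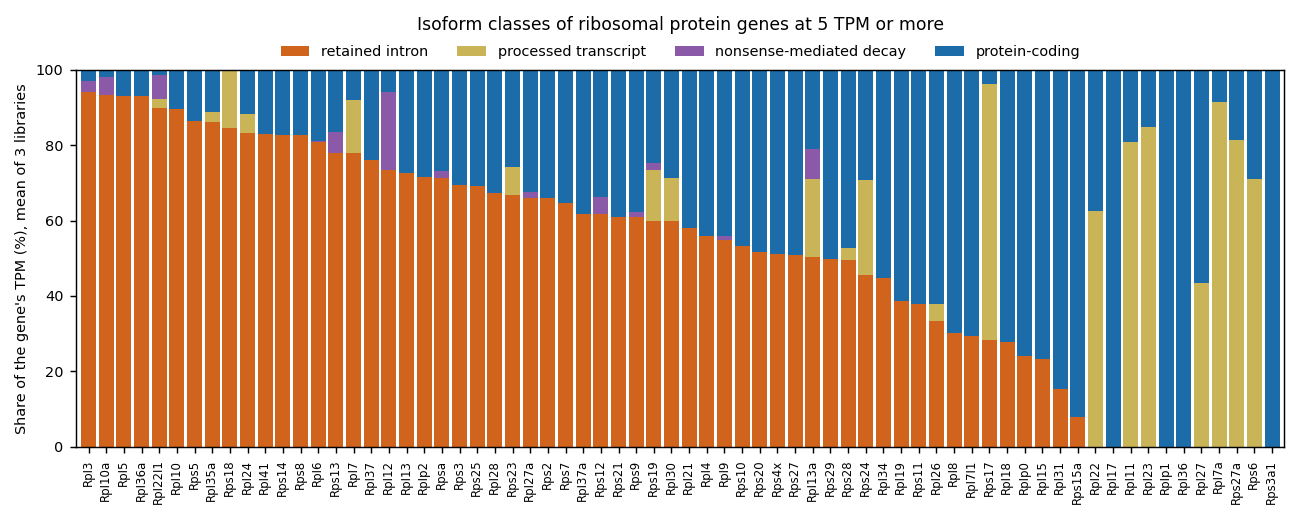
Share of each gene's TPM in 4 annotated isoform classes (mean of 3 libraries, in percent) for 68 of the 69 ribosomal protein genes with a mean of 5 TPM or more, ordered by retained-intron share; bars stack to 100%. Retained-intron isoforms hold over 50% in 42 genes shown, from Rpl3 at the left; the 11 genes at the right have no such isoform in the annotation.

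Among members at a mean of 5 TPM or more, the 6 highest shares belonged to abundant genes and to Rpl36a and Rpl22l1, which lie below the members' median level. In Rpl3 retained-intron isoforms took 93.8%, 92.5% and 95.6% of the TPM, in Rpl10a 92.0%, 92.8% and 94.8%, in Rpl5 96.8%, 92.4% and 89.9%, in Rpl36a 93.4%, 85.4% and 100%, in Rpl22l1 96.2%, 80.2% and 93.3%, and in Rpl10 88.1%, 91.7% and 88.8%. For Rpl10 the isoform whose intron ends are printed above, Rpl10-208, was at 33.1, 62.4 and 44.2 TPM, against 7.33, 7.11 and 6.48 TPM for the spliced Rpl10-201. Rpl3-204, which holds the 583-base intron, was at 21.5, 32.7 and 39.1 TPM, against 0.27, 1.08 and 0 TPM for Rpl3-201. Rpl10a-206 was at 12.04, 24.6 and 31.8 TPM, against 0, 0.47 and 0 TPM for Rpl10a-201. In each of these pairs the intron-holding isoform was above the spliced one in every library. The pairs were picked for a high mean level of the intron-holding isoform, and the spliced partner was not picked by level. This order was therefore favoured by the choice. A pair sets 1 isoform against 1 other, so it does not give the share of transcripts that keep the printed intron. Other isoforms hold a whole intron of another length, 635 bases in Rpl10-207 (26.2 TPM on average) and 515 bases in Rpl3-206 (20.2 TPM). All protein-coding isoforms together averaged 12.95 TPM in Rpl10, 2.16 TPM in Rpl3 and 1.04 TPM in Rpl10a.

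At the other end stood Rps15a, with 5.70%, 7.57% and 10.6% in retained-intron isoforms, and Rpl31, Rpl15 and Rplp0, the scaffold of the stalk, with 15.4 ± 9.62%, 23.3 ± 8.30% and 24.2 ± 11.0% (SD, n = 3 each). In the second quantification Rps15a was at 13.3%, Rpl31 at 43.3%, Rpl15 at 33.0% and Rplp0 at 20.1%, so the low place of Rpl31 depends on the quantification. The share of Rpl12 in isoforms subject to nonsense-mediated decay was 20.6%, but this value depends on the quantification. Rpl12-201, of this class, averaged 8.09 TPM, and 1.40 TPM in the second quantification. Retained-intron isoforms took 95.7% of Rpl12 there. Rpl7a has no isoform annotated as retained intron, but 91.5% of its TPM lay in processed transcripts, and 89.4% in isoforms that hold a whole intron.

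The height of a member's total level went with this class. The 61 core members with a retained-intron isoform had a median of 13.1 ± 2.56 TPM and the 16 without one 8.22 ± 1.66 TPM (SD, n = 3 each), a log2(TPM + 1) difference of 0.62 ± 0.07. When only protein-coding isoforms were summed, the medians were 4.20 ± 1.09 and 4.19 ± 1.01 TPM (SD, n = 3 each), with a difference of 0.00 ± 0.05. In the second quantification the difference of total levels was 0.10 ± 0.07. The part of the annotation in this difference was not tested.

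Small nucleolar RNAs lie inside 30 members, 58 of them in all, and their hosts are all core members. Shown are Snord15b, which had the most counts, and Snora70 of the leading gene Rpl10; capitals mark the boxes that give each family its name, C and D in Snord15b and ACA in Snora70. The sequences are those of GENCODE M21, at chr7:99479563-99479707 on the minus strand in Rps3 and chrX:74272484-74272620 on the plus strand in Rpl10, in mm10.
Snord15b: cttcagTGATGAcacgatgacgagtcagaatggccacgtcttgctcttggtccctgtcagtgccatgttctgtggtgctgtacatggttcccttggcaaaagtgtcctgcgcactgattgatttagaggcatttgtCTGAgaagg
Snora70: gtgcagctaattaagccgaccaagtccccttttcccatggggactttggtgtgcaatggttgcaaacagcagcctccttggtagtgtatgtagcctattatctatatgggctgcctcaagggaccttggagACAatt

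The counts of these snoRNAs were far apart. Snord15b had 5079, 5230 and 2336 expected counts in replicates 1, 2 and 3, while its host Rps3, an mRNA entry channel protein, had 273, 765 and 493. Snord15a, also in Rps3, had 646, 1656 and 562 counts. Gm26448 in Rpsa, whose protein also serves as a laminin receptor, had 366, 720 and 317 counts. Snora70 in Rpl10 had 21.6, 69.1 and 7.76 counts, against 749, 1860 and 1003 for the host. Snora7a in Rpl32 had 10.7, 46.8 and 11.8 counts and Snora52 in Rplp2 4.96, 42.9 and 5.96, so that both were highest in replicate 2. Of the 58, 40 were listed at 0 in every library, and 36 of these had an effective length of 0 in every library. No level can be read for these 36. The labels give a fragment size of 250 to 400, the 40 are at most 149 bases long, and the shortest snoRNA with counts has 125.

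Host genes stood higher than the other members in the total level of the gene table. The difference of medians was 0.57 ± 0.17 on the log2(TPM + 1) scale over all members and 0.38 ± 0.10 over the core members, with medians of 15.0 ± 3.79 TPM in 30 hosts and 11.2 ± 2.60 TPM in 47 other core members (SD, n = 3 each). In the second quantification the core difference was 0.07 ± 0.05, with medians of 22.1 ± 4.48 TPM in hosts and 20.97 ± 3.61 TPM in the others (SD, n = 3 each), and in protein-coding isoforms alone it was -0.05 ± 0.11. Of the 22 hosts with a retained-intron isoform and a mean of 5 TPM or more, 21 had over 50% of their TPM in this class, as had 22 of the 36 others; the median shares were 69.5 ± 2.10% in hosts and 57.8 ± 4.76% in the others (SD, n = 3 each). In all, 30 isoforms of 22 hosts contain a snoRNA, and they took 12.6 ± 0.42% of the members' TPM (SD, n = 3).

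Levels of these genes differed between the libraries as a group. TPM is a share, and protein-coding genes took 69.8%, 60.2% and 66.6% of the expected counts. TPM was therefore rescaled here to a sum of 1000000 over protein-coding genes. Their share of TPM differs from that of counts, since TPM is corrected for length. Snord15b alone, of 145 bases, was at 69766, 39649 and 41594 TPM. The rescaling raised the median member from 10.04, 9.94 and 14.0 TPM to 42.1, 59.7 and 55.5 TPM in replicates 1, 2 and 3. For this median it moved replicate 2 from lowest to highest. Among the 69 members with a mean of 5 TPM or more, 57 were lowest in replicate 1 and 42 highest in replicate 2; of 6874 protein-coding genes at that level 42.9% were lowest in replicate 1 and 35.3% highest in replicate 2. The median log2 deviation from a gene's own mean was -0.38, 0.28 and 0.08 in replicates 1, 2 and 3 over the members, and -0.02, -0.03 and 0.05 over all protein-coding genes. It was -0.10, 0.11 and -0.08 over the 27 TOP genes at that level, and 0.00, -0.14 and 0.15 over 24 mitochondrial ribosomal protein genes. In the second quantification, rescaled in the same way, 55 of 69 members were lowest in replicate 1 and 43 highest in replicate 2. Of all protein-coding genes there, 45.0% were lowest in replicate 1 and 35.6% highest in replicate 2. In TMM-scaled CPM the members numbered 52 and 55, where 52.1% and 53.5% of all protein-coding genes behaved so. Input RNA runs in the opposite order, highest in replicate 1 and lowest in replicate 2, and its part in the pattern was not tested. In RNA pooled from many cells, fewer expressing cells and less RNA per cell cannot be told apart.

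**Figure D3:**
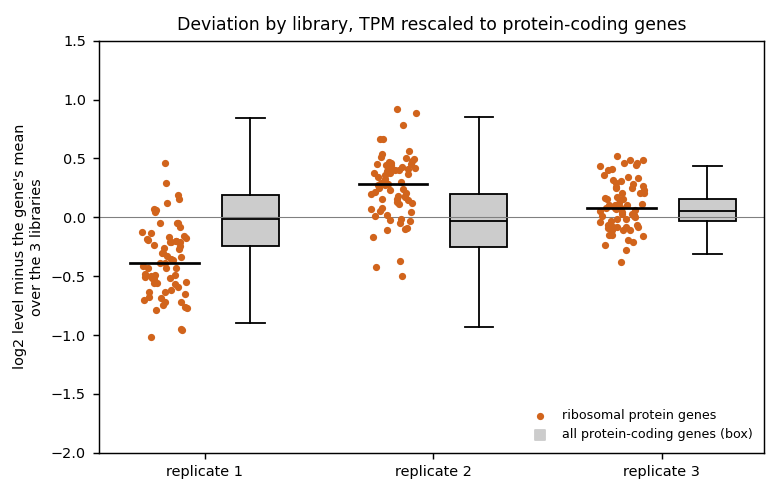
Deviation of each gene's log2 level (TPM rescaled to protein-coding genes) from its mean over the 3 libraries, for the 69 ribosomal protein genes (points, with a black line at the median) and all 6874 protein-coding genes at a mean of 5 TPM or more (boxes with quartiles, whiskers to 1.5 times the box, points beyond left out). The medians of the points are -0.38, 0.28 and 0.08.

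Coding and retained-intron isoforms shifted alike. On the rescaled level, the members' protein-coding isoforms summed to 1421, 2274 and 2020 TPM in replicates 1, 2 and 3, and their retained-intron isoforms to 2824, 4603 and 3985 TPM. Both were lowest in replicate 1 and highest in replicate 2. Rpl10 followed the pattern with 442, 812 and 534 rescaled TPM, and Rpl3 with 249, 420 and 360. The place of replicate 2 depends on the rescaling. Before it, the coding isoforms summed to 339, 379 and 511 TPM and the retained-intron isoforms to 674, 766 and 1007 TPM. Both sums were then lowest in replicate 1 and highest in replicate 3.

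The spread over the libraries differed between members. Over the 86 members the median SD of the log2 rescaled level was 0.42, while over the 10235 protein-coding genes at a mean of 1 TPM or more it was 0.29; for the 82 members at that level it was also 0.42. The widest were Rps21, with 19.0, 56.7 and 52.2 rescaled TPM, Rps28, with 26.2, 80.9 and 62.2, Rpl13a, with 57.4, 174 and 78.3, Rps10, with 20.5, 57.3 and 52.5, and the stalk protein Rplp1, with 20.8, 54.9 and 22.7. All 5 were lowest in replicate 1 and highest in replicate 2. Counts behind Rps21 were only 15.0, 56.0 and 39.0. For Rps28 the quantifications differ in order. Before rescaling it was at 6.25, 13.5 and 15.7 TPM in the gene table and 27.3, 16.6 and 24.8 TPM in the second quantification. Its retained-intron share was 77.8%, 30.8% and 40.3%. The TPM of Rpl13a lay below its deposited interval in replicate 1 (13.7 against 14.7 to 31.4) and replicate 3 (19.8 against 19.98 to 41.0). The narrowest were Rpl17, with 42.6, 43.6 and 45.8 rescaled TPM, Rpl7, with 58.4, 59.1 and 63.6, and Rpl37, with 56.3, 54.1 and 50.9. Rps15a ran the other way, with 80.8 in replicate 1 and 43.8 and 57.0 in replicates 2 and 3.

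Starts of the genes were looked up in RefSeq promoters on GRCm38.p6, which held 66 of the 86 members. The letters of a TOP start, a cytosine at the annotated start followed by 4 pyrimidines, were found in 14 of the 66 (21.2%), and in 2.63% of 16453 other protein-coding genes. The starts of the 4 most abundant of these members are shown, with 20 bases before the start and 10 from it; the capitals mark the pyrimidine run from the start.
Rps18, chr17:33955656-33955685, minus strand: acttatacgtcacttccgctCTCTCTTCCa
Rps27, chr3:90213639-90213668, minus strand: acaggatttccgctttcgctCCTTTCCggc
Rps6, chr4:86857358-86857387, minus strand: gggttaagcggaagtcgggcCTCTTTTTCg
Rps15a, chr7:118116138-118116167, minus strand: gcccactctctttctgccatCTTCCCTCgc
These 4 were at 25.6, 19.4, 17.4 and 13.7 TPM on average. In the 300-base windows around the start, counted on both strands, the letters CCGGAAG of ETS factors were present in 39.4% of the members and 13.2% of the other genes, AAGATGG of YY1 in 15.2% and 7.23%, GGGCGG of SP1 in 62.1% and 51.0%, and TATAAA in 10.6% and 14.4%. A match is a match of letters only, and a window without one may still start a few bases from the annotated place.

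The second quantification raised most members and changed part of their order. Mean TPM in the second and in the gene table had a Spearman correlation of 0.836 across the 83 members with a count. Both rest on the same libraries, so they are not independent measurements. The second assigned more counts in all, 17273471, 36846229 and 24634356 in replicates 1, 2 and 3. The second value was higher in 74 of 82 members with a mean of 1 TPM or more in both, with a median log2 ratio of 0.66, and by over 2 times in 25 (30.5%). Of all 10210 protein-coding genes at that level 29.7% were over 2 times higher, with a median log2 ratio of 0.68, so this shift is not particular to the members. The largest ratios belonged to Rps27l, at 13.5 ± 6.46 TPM in the second quantification and 1.74 ± 1.14 TPM in the gene table, Rpl39 at 22.9 ± 7.06 and 4.24 ± 0.801 TPM, Rpl36 at 30.2 ± 7.30 and 6.32 ± 2.93 TPM, Rpl24 at 32.6 ± 8.17 and 7.19 ± 0.806 TPM, and Rpl29 at 10.3 ± 3.51 and 2.32 ± 0.773 TPM (SD, n = 3 each). The lowest were Rpl9, at 22.5 ± 2.29 and 28.6 ± 5.27 TPM, Rpl12 at 31.4 ± 8.24 and 38.6 ± 14.6 TPM, Rps12 at 27.7 ± 6.24 and 34.0 ± 6.73 TPM, Rpl10 at 105 ± 4.90 and 125 ± 17.1 TPM, and Rpl10a at 49.9 ± 10.9 and 54.4 ± 16.9 TPM (SD, n = 3 each). The ratio was larger in short genes: the median log2 ratio was 0.98 over 18 members whose longest protein-coding isoform is under 600 bases, and 0.58 over the 64 others.

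**Figure D4:**
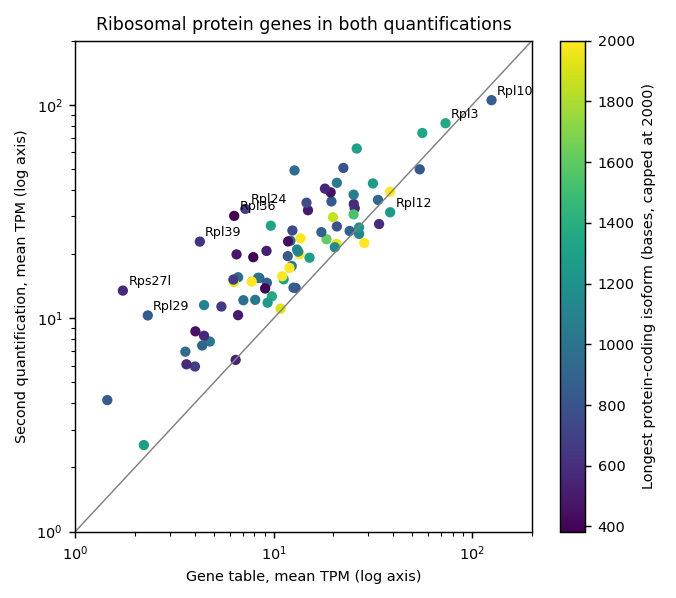
Mean TPM over 3 libraries in the second quantification against the gene table for 82 ribosomal protein genes (both axes log, grey line at equal values); colour gives the length of the longest protein-coding isoform in bases, capped at 2000. Most points lie above the line, with Rps27l, Rpl39, Rpl36, Rpl24 and Rpl29 the farthest, and Rpl10 and Rpl12 lie below it.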

How the data were processed

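For each of the 3 libraries, the deposited gene and transcript tables gave expected counts and TPM, per the file headers, and a further deposited transcript table gave estimated counts and TPM of a second quantification. TPM was scaled by the authors to sum to 1000000 over features, per the values. Assembly mm10 and annotation GENCODE M21 are named in the labels and in text deposited with the tables. Of aligner, counting program and strand nothing is stated in those sources, so a member and an antisense gene may share reads.

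The replicates share a donor label, so their spread may be smaller than that between animals. Depth was 10974934 to 21376404 expected counts. Isoform shares sum a gene's transcript TPM by annotated class. No comparison between groups was possible, and within-library differences of lists over 3 libraries were not tested: values are per library or mean ± SD. List differences used medians of log2(TPM + 1). TMM factors came from edgeR 4.0.16 in R 4.3.3, on expected counts rounded to whole numbers. The remaining steps ran in Python 3.11.15 (numpy 2.4.6, pandas 2.3.3). Of these, only the isoform shares and the difference of medians were tried on simulated data.

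Members, gene lists and markers were chosen with earlier results of these data known. Named with values are the 12 highest and 6 lowest members, Rpl10, Rpl3, the 6 highest and 4 lowest retained-intron shares, the 5 largest and 3 smallest SDs (these at 5 TPM or more), the 5 most extreme ratios of the quantifications either way, paralogs with parents, the 6 hosts with most snoRNA counts and the 4 highest of each list. Rps18, Rps6 and Snord15a were named after their values were seen, as was the low value of Rps15a in replicate 2. Some genes that the rule takes are not reported here, and the plots by gene leave them out.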

Additional observations from a re-analysis of the deposited data

How the results depend on the processing

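Of 31 alternatives beside leaving out a library, 13 moved by more than the spread of the result and 2 reversed. Counts of members and the median SD have no spread over libraries: the SD lay between 0.31 and 0.43. The second quantification gave a median level of 19.9 TPM, a retained-intron share of 47.4%, a large minus small difference of 0.13 and a host minus other difference of 0.26. TMM-scaled CPM gave a median of 7.98, a cytosolic minus mitochondrial difference of 0.83, a large minus small difference of -0.029 and a host difference of 1.34; they are not divided by length. TPM rescaled to protein-coding genes gave a median of 52.4. With a pseudocount of 0.1 the cytosolic minus mitochondrial difference was 1.84. The share of a member's TPM in retained-intron isoforms, 54.2% over all members with any TPM, was 47.0% by expected counts and, in an alternative added after seeing the data, 63.8% over members with such an isoform. With protein-coding counts as the denominator the members' share of counts was 0.190%. Also added after seeing the data, the host difference was 0.38 over core members and -0.053 in their coding isoforms. Leaving out 1 library each moved the large minus small difference between -0.022 and 0.074, reversed without replicate 2. Members at 5 TPM in every library numbered 60, against 80 at 1 TPM. The median level has no log scale, so the pseudocount was not run on it. Members under 10 counts are limited by depth. No paired analysis was possible because there is 1 group and no sample to pair across groups; list differences were taken within each library.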
